A study of Mus musculus with 8 samples.

Results

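The genes described here are 10 members of the Hippo pathway and its YAP targets, Yap1, Wwtr1, Tead1, Lats1, Lats2, Ajuba, Amotl2, Ankrd1, Cyr61 and Ctgf. They were taken by symbol from an expression table of 22504 mouse genes by a rule that uses no measured value, though with earlier results of these data known, and Cyr61 and Ctgf are also named Ccn1 and Ccn2. RNA sequencing values came from 8 samples of Fah-/- mice of strain background 129S4. These mice lack fumarylacetoacetate hydrolase, the enzyme at the end of tyrosine breakdown, and depend on the drug NTBC, which blocks an earlier step of that route. The 8-week group (C 8w, n = 3) had 8 weeks of moderate chronic liver injury (MCLI), on 2.5% of the curative NTBC dose. The SALI group (C 8w + A 4w, n = 3) had the same treatment followed by 4 weeks of severe acute liver injury (SALI), with no NTBC. The 12-week group (C 12w, n = 2) had 12 weeks of MCLI. The tissue label is liver for the first pair of groups and tumor for the 12-week group, so the length of MCLI and the tissue cannot be told apart there. No uninjured mouse, and no Fah wild type, is among these samples.

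Hippo signalling is a kinase cascade that restrains organ growth. The kinases LATS1 and LATS2 phosphorylate the coactivators YAP (Yap1) and TAZ (Wwtr1), which are then held in the cytoplasm or degraded. Unphosphorylated YAP and TAZ enter the nucleus and bind TEAD factors, which switch on targets such as Ctgf, Cyr61 and Ankrd1. In the liver the pathway is known for its control of organ size, bile duct fate and tumor formation. Most of this control acts on the proteins, which mRNA levels do not measure.

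The 8-week and 12-week samples carry codes of one series and the SALI samples codes of another, so this series and the SALI group cannot be told apart. Alb, which encodes albumin, was listed at 0 in all 5 samples of the 8-week group and the 12-week group and at 12946 to 16950 FPKM (fragments scaled to gene length and to the mapped fragments of the sample) in the SALI group. It was 1 of 3 genes listed at 0 in all these 5 samples and at 100 FPKM or more in every SALI sample, beside mt-Co1, a mitochondrial respiratory gene (11427 to 13820 FPKM), and Rpl23a, a ribosomal protein gene (394 to 477), both of which nearly every cell uses. The reverse was found for 0 genes. Whether the values of both code series were made in the same way is not given in the sources used here, and its part in the comparisons with the SALI group was not tested. Read numbers are not kept by FPKM, so the depth is unknown, and the sums of FPKM over all genes ranged from 324735 to 399342. The extract protocol in the labels speaks of retinas. Rcvrn and Crx, which retinal cells express, were listed at 0 in every sample, and Gnat1 was between 1.95 and 3.57 FPKM. Summed hepatocyte markers were between 9199 and 29722 FPKM with Alb, and between 9199 and 14824 for the 9 others. In whole tissue, fewer cells of one type and less RNA per cell cannot be told apart.

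TEAD factors bind the core sequence GGAATG, or CATTCC on the other strand. The 250 bases before the transcript start were read for 8 of the 10 members from RefSeq promoters (GRCm38.p6). Tead1 and the target Ctgf had no promoter there and were not read. GGAATG was present in 6 of the 8, against 14.4% of 27025 genes whose promoters were read in the same way. TGANTCA, the AP-1 motif, was in 0 of the 8 and in 7.82% of all genes. The stretches of 5 members are shown because they compare the classical targets Ankrd1, Cyr61 and Amotl2 with Ajuba and Wwtr1, which had the largest ranges of group means among the members tested. Each is given 5' to 3' on the strand of its gene, with the motif in capitals. They lie at chr19:36119845-36120094 (minus strand), chr3:145649986-145650235 (minus strand), chr9:102717554-102717803 (plus strand), chr14:54577662-54577911 (minus strand) and chr3:57575911-57576160 (minus strand, the first of its starts), all directly upstream of the gene.
Ankrd1: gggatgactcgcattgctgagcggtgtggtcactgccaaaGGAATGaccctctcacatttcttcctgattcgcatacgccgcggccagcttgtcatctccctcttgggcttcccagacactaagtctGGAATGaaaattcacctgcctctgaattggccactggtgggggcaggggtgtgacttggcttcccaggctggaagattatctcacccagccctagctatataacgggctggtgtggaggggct
Cyr61: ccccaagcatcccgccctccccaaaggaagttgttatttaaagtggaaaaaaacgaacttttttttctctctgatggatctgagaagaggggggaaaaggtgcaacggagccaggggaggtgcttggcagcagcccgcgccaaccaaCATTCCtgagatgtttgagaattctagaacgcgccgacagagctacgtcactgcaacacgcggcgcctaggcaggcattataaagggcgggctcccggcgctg
Amotl2: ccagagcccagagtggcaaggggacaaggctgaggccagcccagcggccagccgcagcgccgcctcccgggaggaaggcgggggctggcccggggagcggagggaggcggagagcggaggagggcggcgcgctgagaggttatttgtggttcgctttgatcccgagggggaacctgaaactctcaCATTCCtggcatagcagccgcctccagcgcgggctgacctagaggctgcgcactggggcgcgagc
Ajuba: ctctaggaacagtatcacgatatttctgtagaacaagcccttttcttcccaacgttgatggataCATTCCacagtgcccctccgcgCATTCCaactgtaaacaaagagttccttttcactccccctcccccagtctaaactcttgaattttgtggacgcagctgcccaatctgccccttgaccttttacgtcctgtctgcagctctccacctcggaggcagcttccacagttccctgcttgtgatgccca
Wwtr1: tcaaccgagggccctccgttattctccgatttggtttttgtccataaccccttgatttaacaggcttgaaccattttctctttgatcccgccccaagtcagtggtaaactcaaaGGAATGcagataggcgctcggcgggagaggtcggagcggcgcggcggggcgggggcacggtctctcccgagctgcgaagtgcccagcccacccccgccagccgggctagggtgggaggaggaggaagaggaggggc

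Ankrd1 and Ajuba each held the motif 2 times, Ankrd1 with first bases at -210 and -123 and Ajuba at -186 and -164, counted from the transcript start. Single matches began at -141 in Yap1, -136 in Wwtr1, -103 in Cyr61 and -65 in Amotl2. The stretches read for Lats1 and Lats2 held none. A match is a description of the sequence, and binding was not measured here.

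**Figure D1:**
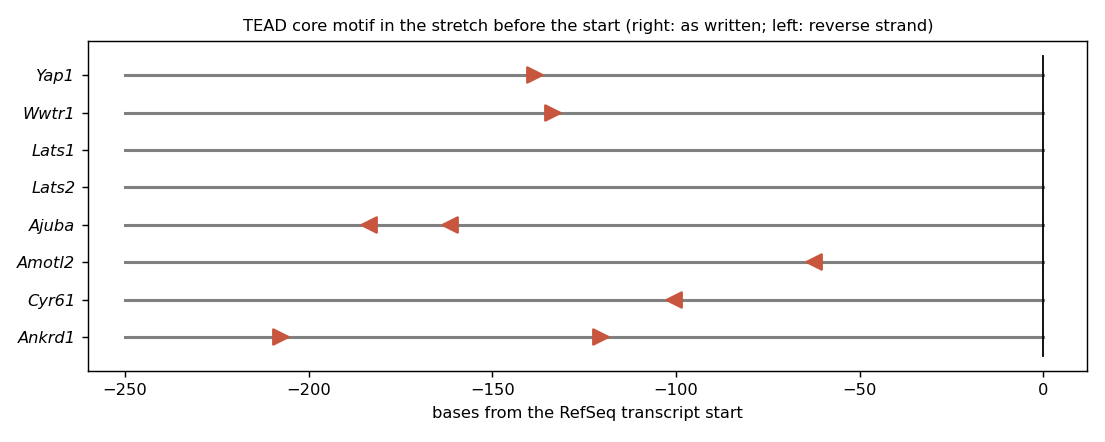
Matches of the TEAD core motif in the 250 bases before the transcript start of 8 members; the x axis is the distance from the start in bases, and each triangle is 1 match. The motif is present in 6 of the 8 genes, with 2 matches each in Ankrd1 and Ajuba.

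Among the coactivators, Wwtr1 rose in both later groups, while the difference of Yap1 was small in each. Yap1 had FPKM values of 15.9, 18.0 and 16.8 in 8-week samples 1a, 2a and 3a, of 21.2, 22.6 and 19.0 in SALI samples C096, C097 and C098, and of 21.0 and 18.9 in 12-week samples 2e and 3e. Every later sample was above every 8-week sample, by little. Wwtr1 had 3.11, 3.64 and 4.23 in the 8-week group, 11.3, 8.15 and 7.99 in the SALI group, and 6.20 and 10.7 in the 12-week group. The lowest later value, in 2e, lay above the highest 8-week value. The FPKM ratio of Yap1 to Wwtr1, which a scaling of the sample cannot change, was 3.97 to 5.13 in the 8-week group, 1.88 to 2.77 in the SALI group, 3.39 in 2e and 1.76 in 3e.

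Differences are given as log2 fold changes of FPKM + 1 from one limma fit of all 8 samples over the 10244 genes that reached an FPKM of 1 in 4 or more samples, with Benjamini-Hochberg adjustment over these genes and a threshold of 0.05. This scale understates the change of low genes. Wwtr1 rose by 1.11 (standard error 0.20, adjusted p = 0.00354) from the 8-week group to the SALI group in limma, a 2.50-fold difference of the mean FPKM. From the 8-week group to the 12-week group it rose by 0.98 (standard error 0.23, adjusted p = 0.0221 in limma), a call that ended without any one of 1a, 2a and 3a (adjusted p from 0.0528 to 0.0810) and without 3e (0.63, adjusted p = 0.0809 in limma). The Yap1 difference between the SALI group and the 8-week group was 0.29 (95% interval 0.042 to 0.54, adjusted p = 0.0635 in limma), and it passed the threshold without 2e or without 3e (adjusted p = 0.0457 and 0.0460 in limma). With median-ratio scaling it was 0.13 (adjusted p = 0.380) and with quantile normalization 0.15 (adjusted p = 0.259, both limma). Between the 12-week group and the 8-week group it was 0.23 (95% interval -0.051 to 0.505, adjusted p = 0.207 in limma), and 0.079 with median-ratio scaling (adjusted p = 0.680).

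Tead1, which encodes a DNA-binding partner of YAP and TAZ, rose in both later groups. Its FPKM was 1.18, 1.50 and 1.40 in the 8-week group, 2.89, 2.70 and 3.10 in the SALI group, and 2.11 in 2e and 4.42 in 3e. The 8-week values lay below all others, and the 12-week samples enclosed the SALI range. Tead1 rose by 0.72 (standard error 0.19, adjusted p = 0.0172 in limma) from the 8-week group to the SALI group, a call that ended without 1a (0.67, adjusted p = 0.0701) and without C098 (0.69, adjusted p = 0.0552). From the 8-week group to the 12-week group it rose by 0.80 (standard error 0.21, adjusted p = 0.0340 in limma), and the value was 0.40 without 3e (adjusted p = 0.0867) and 1.202 without 2e (adjusted p = 0.000791). Without 1a, 2a, 3a or C098 it was not past the threshold either (adjusted p = 0.110, 0.0755, 0.0915 and 0.0571 in limma), nor was it with no floor or with only these groups in the fit (adjusted p = 0.0740 and 0.0775). Of the other TEAD genes, Tead3 was kept by the floor and was called in none of the comparisons by limma, and Tead4 had 0.0842 to 0.102 FPKM in the 8-week group, 0.136 to 0.163 in the SALI group, 0.200 in 2e and 2.89 in 3e.

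Of the LATS kinases, Lats1 rose in both later groups and Lats2 was not called. Lats1 had 3.45, 4.29 and 3.91 FPKM in the 8-week group, 6.63, 6.15 and 5.64 in the SALI group, and 6.97 and 6.83 in the 12-week group. The 3 groups did not overlap, with the 12-week group highest. Its log2 fold change from the 8-week group was 0.55 in the SALI group (standard error 0.11, adjusted p = 0.00479 in limma) and 0.70 in the 12-week group (standard error 0.12, adjusted p = 0.00808 in limma), and both calls held with any 1 sample left out. Lats2, itself a YAP target, had 2.33, 2.37 and 2.41 in the 8-week group, 3.25, 4.05 and 3.15 in the SALI group, 2.46 in 2e and 4.81 in 3e. All later values were above those of the 8-week group, though 2e by only a small margin. The difference between the SALI group and the 8-week group was 0.41 (95% interval -0.015 to 0.83, adjusted p = 0.111 in limma), and it passed without 2e or without 3e (adjusted p = 0.0126 in both fits with limma). Between the 12-week group and the 8-week group it was 0.41 (adjusted p = 0.178 in limma), 0.79 without 2e (adjusted p = 0.00547) and 0.038 without 3e (adjusted p = 0.895). With quantile normalization the Lats2 differences from the 8-week group were 0.25 in the SALI group and 0.22 in the 12-week group (adjusted p = 0.207 and 0.356 in limma). A pseudocount of 0.1 gave 0.53 in the SALI group (adjusted p = 0.102 in limma). Of the 50-base windows of the Lats2 transcripts, 41.2% occur also in the annotated gene Gm49361, and how reads of both were assigned is not stated. The ratio of Lats1 to Lats2 FPKM was 1.48 to 1.81 in the 8-week group, 1.52 to 2.04 in the SALI group, 2.84 in 2e and 1.42 in 3e.

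Ajuba, a LIM protein that binds and inhibits LATS, showed the largest rise among the 9 members tested. It had 3.62, 5.08 and 5.33 FPKM in the 8-week group, 19.6, 17.1 and 13.7 in the SALI group, and 10.4 and 19.1 in the 12-week group. All 5 later values exceeded every 8-week value. The mean FPKM was 4.68 ± 0.926 (SD, n = 3) in the 8-week group, 16.8 ± 2.94 (SD, n = 3) in the SALI group and 14.8 ± 6.15 (SD, n = 2) in the 12-week group. Ajuba rose by 1.65 (standard error 0.23, adjusted p = 0.000927 in limma) from the 8-week group to the SALI group and by 1.43 (standard error 0.26, adjusted p = 0.00948 in limma) from the 8-week group to the 12-week group, and both calls held with any 1 sample left out. The FPKM of its relative Limd1 was 4.76 to 5.32 in the 8-week group, 3.91 to 4.38 in the SALI group, 6.43 in 2e and 4.98 in 3e.

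**Figure D2:**
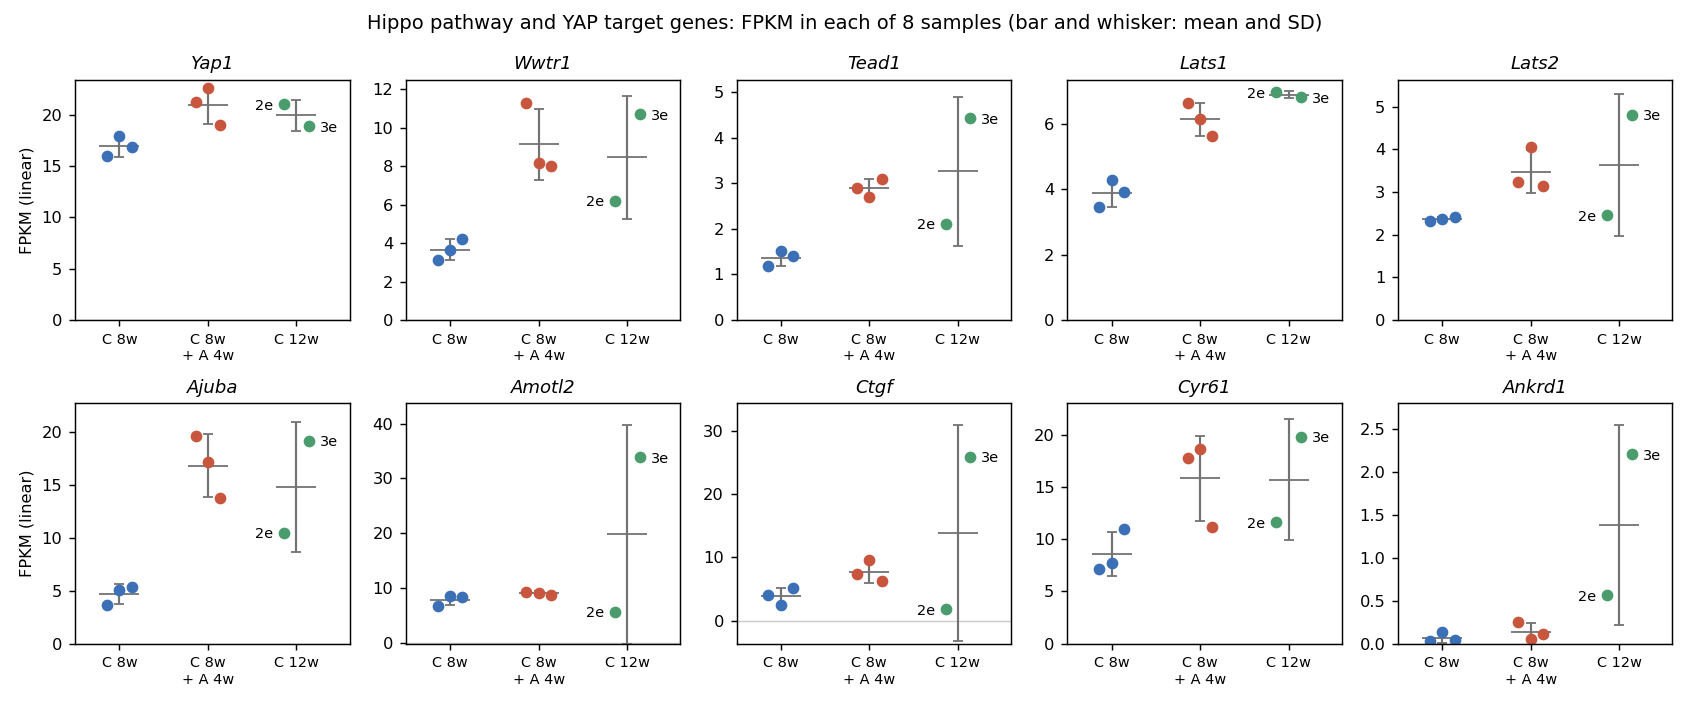
FPKM of the 10 members in each of the 8 samples on linear axes; points are samples (blue the 8-week group, red the SALI group, green the 12-week group with sample codes), and the bar and whisker are the mean and SD. Ajuba and Wwtr1 are higher in all 5 later samples than in the 8-week group, and for Amotl2, Ctgf and Ankrd1 the value of 3e stands above all other samples.

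The target genes were less uniform. Cyr61, which encodes a secreted matrix protein, had 7.13, 7.69 and 11.0 FPKM in the 8-week group, 17.7, 18.6 and 11.1 in the SALI group, and 11.6 and 19.8 in the 12-week group. The groups were apart by the narrow gap between 3a and C098. Cyr61 rose by 0.80 (standard error 0.26, adjusted p = 0.0369 in limma) from the 8-week group to the SALI group, and the call ended without 1a, 2a, C096 or C097 (0.69, 0.74, 0.70 and 0.67, with adjusted p = 0.130, 0.107, 0.110 and 0.107 in limma). It ended also with no floor (adjusted p = 0.0792), with samples scaled to equal sums (adjusted p = 0.0752) and with quantile normalization (adjusted p = 0.0630, all limma). Between the 12-week group and the 8-week group the Cyr61 difference was 0.78 (adjusted p = 0.0857 in limma) and was 1.14 without 2e (adjusted p = 0.0216) and 0.42 without 3e (adjusted p = 0.392).

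Ctgf, which encodes connective tissue growth factor, had 4.02, 2.45 and 5.11 FPKM in the 8-week group and 7.34, 9.55 and 6.21 in the SALI group. In the 12-week group it had 1.83 in 2e, the lowest value of the 8 samples, and 25.9 in 3e, the highest. Its difference between the SALI group and the 8-week group was 0.86 (95% interval -0.696 to 2.42, adjusted p = 0.342 in limma), although these groups did not overlap. With only these 2 groups in the fit, or without 2e or 3e, the same difference had an adjusted p of 0.0127, 0.0127 and 0.0126 in limma. In the fit of all groups the distance between 2e and 3e is part of the estimated spread. Ctgf differed between the 12-week group and the 8-week group by 0.88 (adjusted p = 0.422 in limma), by 2.51 without 2e (adjusted p = 0.00116) and by -0.74 without 3e (adjusted p = 0.147). Ctgf shares 17.2% of its 50-base windows with the annotated gene Gm15270.

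Amotl2, an angiomotin family member that binds YAP and is also its target, had 6.81, 8.49 and 8.28 FPKM in the 8-week group, 9.36, 9.06 and 8.65 in the SALI group, 5.69 in 2e and 33.9 in 3e. The SALI samples lay just above the 8-week group, 2e lay below both groups and 3e far above them. The difference between the SALI group and the 8-week group was 0.18 (95% interval -0.925 to 1.29, adjusted p = 0.786 in limma). It was 0.035 with median-ratio scaling, 0.10 with equal sums and 0.025 with quantile normalization (adjusted p = 0.958, 0.898 and 0.973 in limma). Leaving out one sample moved it to between 0.095 and 0.23. Between the 12-week group and the 8-week group it was 0.79 (adjusted p = 0.312 in limma), 1.98 without 2e (adjusted p = 0.000158) and -0.40 without 3e (adjusted p = 0.111). Ankrd1, a nuclear ankyrin repeat protein used widely as a YAP readout, was near 0 in the 8-week group (0.0287, 0.138 and 0.0411 FPKM) and in the SALI group (0.248, 0.0556 and 0.114). It had 0.563 in 2e and 2.21 in 3e, above all 6 samples of the other groups. Only 3e reached an FPKM of 1, so Ankrd1 missed the floor and was not tested in the fit above.

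Counted together, 5 of the 9 members tested rose from the 8-week group to the SALI group and 0 fell, against 25.3% of all genes tested called higher and 14.1% lower (39.4% in either direction). In the same comparison 9 of the 10 members did not overlap between the groups and were higher in the SALI group. These were 9 of the 9 tested, against 39.0% of all genes tested. The median log2 fold change of the 9 members was 0.72, and that of all genes 0.12. From the 8-week group to the 12-week group, a comparison within one code series, 4 of 9 members rose and 0 fell, against 12.2% of all genes called higher and 6.98% lower (19.2% in either direction). Here 8 of the 10 were higher without overlap. Among the 9 tested, 7 were, against 34.9% of all genes tested. The medians were 0.79 for the members and 0.12 for all genes. Both comparisons share the 8-week samples. With samples scaled by median ratios, which moved the medians of all genes to -0.012 and -0.011, the members called were again 5 and 4, with medians of 0.62 and 0.65. Leaving out one sample moved the 5 to 3 without 1a and to 8 without 2e or 3e, fits that called 24.1%, 50.7% and 50.6% of all genes. It moved the 4 to 2 without 1a, 2a, 3a or 3e (6.61%, 9.19%, 7.03% and 14.9% of all genes) and to 8 without 2e (36.1%). With the samples numbered 2 and 3 paired as a replicate block, 0 members were called between the 12-week group and the 8-week group by limma (adjusted p from 0.0526 to 0.229 for the 4), and 2.46% of all genes.

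Cell type markers moved beside these counts. In the 12-week group, against the 8-week group, 3 of 5 bile duct markers tested rose and 0 fell (median 1.42). Of 8 endothelial markers 3 fell and 0 rose (median -0.27). Of 9 stellate cell and fibroblast markers 2 rose and 1 fell (median 0.37). Of 9 hepatocyte markers 1 fell and 0 rose (median 0.15). Among all genes tested, 12.2% rose and 6.98% fell. In the SALI group, against the 8-week group, 1 bile duct marker rose and 0 fell (median 0.91). Of the endothelial markers 3 fell and 1 rose (median -0.34). Of the stellate cell and fibroblast markers 1 fell and 0 rose (median 0.22). Of the hepatocyte markers 2 fell and 1 rose (median -0.77), and without overlap 5 of 9 were lower and 1 higher. Among all genes tested, 25.3% rose and 14.1% fell. Of 8 macrophage markers 0 were called in either comparison by limma, with 1 and 0 at an unadjusted p under 0.05. Their summed FPKM was 157 to 188 in the 8-week group, 176 in 2e and 137 in 3e. In the SALI group it was 438 in C097, and 137 and 123 in C096 and C098. The summed FPKM of 9 endothelial markers was 48.1 to 51.1 in the 8-week group, 23.7 to 41.6 in the SALI group, 33.3 in 2e and 27.4 in 3e. The part of these cells in the differences of the members was not tested.

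Between the SALI group and the 12-week group, 0 of the 9 members were called by limma, and 0 had an unadjusted p under 0.05, against 32.8% of all genes called. Lats1 and Ankrd1 were lower in the SALI group than in the 12-week group without overlap, and the other 8 overlapped. Among the 9 tested, 1 was lower in this way, against 24.2% of all genes tested. The intervals were narrow for some members and wide for others. The Yap1 difference was 0.064 (95% interval -0.214 to 0.34), that of Lats1 -0.15 (-0.422 to 0.13), that of Wwtr1 0.13 (-0.393 to 0.65) and that of Ctgf -0.023 (-1.76 to 1.72). This count rested on having both 12-week samples in the fit. Without 2e, Tead1 (-0.48, adjusted p = 0.0248), Amotl2 (-1.80, adjusted p = 8.52e-05) and Ctgf (-1.65, adjusted p = 0.00415) were lower in the SALI group in limma. Without 3e, Amotl2 (0.58, adjusted p = 0.0213) and Ctgf (1.60, adjusted p = 0.00668) were higher in it in limma. In these fits the remaining 12-week sample is assumed to vary like the other groups.

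**Figure D3:**
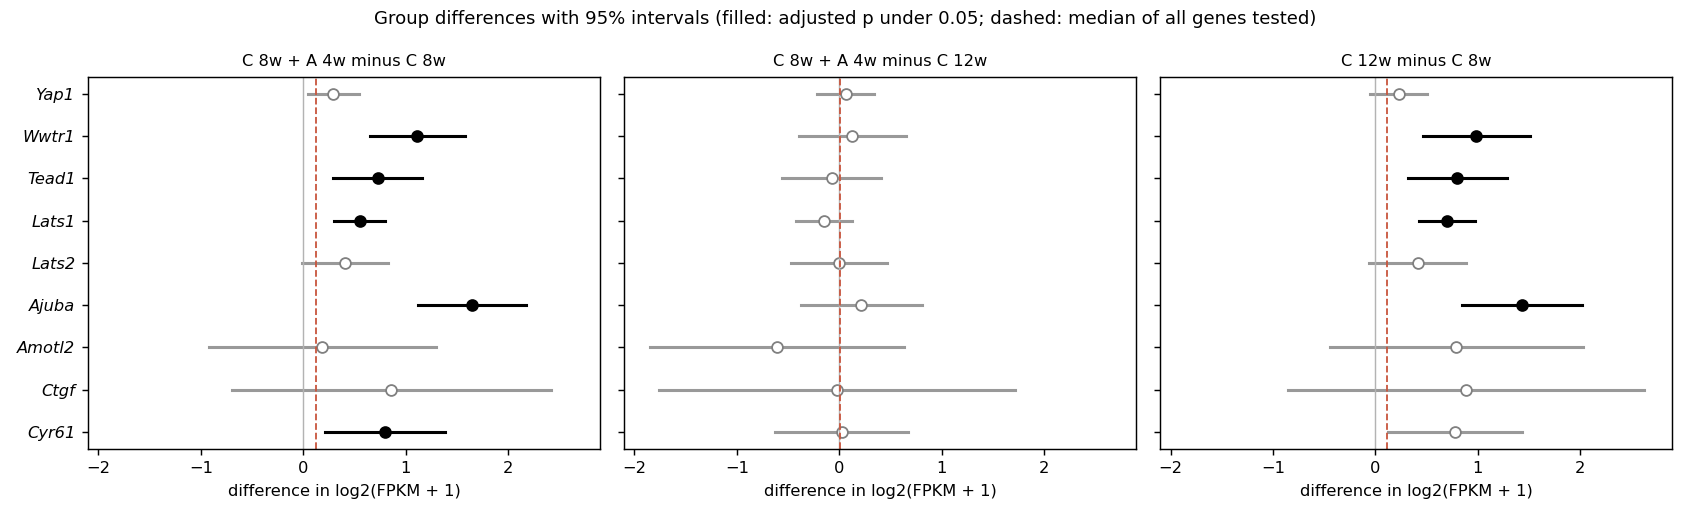
Differences of log2(FPKM + 1) between groups for the 9 members tested, with 95% intervals from limma; filled points have an adjusted p under 0.05, and the dashed line is the median of all 10244 genes. Wwtr1, Tead1, Lats1 and Ajuba are called above the 8-week group in both later groups and Cyr61 in the SALI group, while 0 members are called between the SALI group and the 12-week group.

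Among the members, the 2 12-week samples differed most in Ctgf, Amotl2 and Ankrd1. Ctgf was 14.2-fold and Amotl2 5.95-fold higher in 3e than in 2e, which placed them 13th and 37th of 10244 genes by the difference of log2(FPKM + 1), with 3.25 and 2.38. Ankrd1, outside those genes, differed by 1.04. Wwtr1, Tead1, Lats2, Ajuba and Cyr61 were higher in 3e by 0.70 to 0.82, inside the 5th to 95th percentile of all genes (-0.788 to 0.896), and Yap1 and Lats1 differed by -0.15 and -0.027. A difference of at least 1 in favor of 3e was found for 2 of the 9 members kept and for 3.66% of all genes. With 1 sample on each side, these differences have no test.

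In a wider target signature of 22 genes, 16 were kept. Of these, 5 were higher in 3e by at least 1 and 1 was lower, where 3.66% of all genes were higher. The 5 include the members Ctgf and Amotl2, already described above, so they add no separate result. The others were Nuak2 (1.87 and 9.73 FPKM), Myof (1.14 and 4.58) and F3 (2.07 and 6.47). Their products are a kinase, a membrane repair protein and tissue factor. Nt5e, the ecto-5'-nucleotidase gene of the same list, was at 48.7 in 2e and 10.6 in 3e. The angiomotin gene Amot (3.17 and 10.9) and Wwc1, whose product KIBRA activates LATS (14.7 and 48.5), were also higher in 3e, and the scaffold gene Sav1 was lower (6.26 and 2.15).

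Markers of bile duct cells moved with the same sample. Of 8 listed, 5 were kept and 4 of them were higher in 3e by at least 1. Among these, Spp1 had 22.2 and 311 FPKM, Sox9 3.61 and 19.9, and Epcam 1.36 and 5.82 in 2e and 3e. The summed FPKM of the 8 markers was 13.5 to 18.8 in the 8-week group, 30.7 to 37.2 in the SALI group, 32.2 in 2e and 355 in 3e, and Spp1 alone gave 22.2 of this in 2e and 311 in 3e. Of 9 stellate cell and fibroblast markers kept, 2 were higher in 3e by at least 1 and 0 were lower (median 0.52), Acta2 with 1.79 FPKM in 2e and 6.41 in 3e and Col1a2 with 4.09 and 9.85. The summed FPKM of the 10 listed was 91.9 to 103 in the 8-week group, 94.3 to 155 in the SALI group, 81.4 in 2e and 104 in 3e, and Dcn, with 48.1 and 40.5 in 2e and 3e, made up much of it. The duct marker Krt7 had 0.165 FPKM in 2e and 1.17 in 3e, Cldn7 0.237 and 0.453, Krt19 0.798 and 1.06, and Cftr 0.0165 and 0.0262, so that these were higher in 3e but low in both samples. Of 9 hepatocyte markers kept, 4 were lower in 3e by at least 1 and 0 were higher (median -0.72). Among all 10244 genes, 325 were lower and 375 higher by at least 1. The summed FPKM of 10 hepatocyte markers was 14824 in 2e and 9199 in 3e. Of 8 macrophage markers 1 was lower in 3e by at least 1 and 0 were higher (median -0.73). The part of these cells in the differences of Ctgf, Amotl2 and Ankrd1 was not tested.

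**Figure D4:**
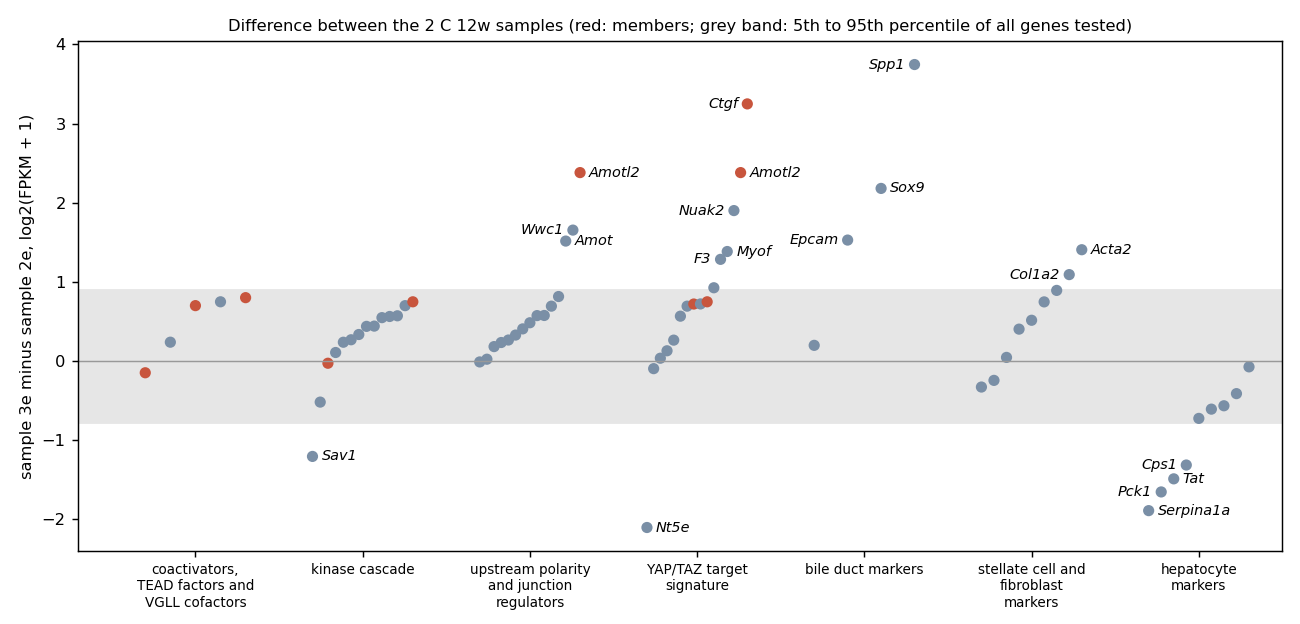
Difference of log2(FPKM + 1) between 12-week samples 3e and 2e for kept genes of 7 lists; each point is a gene, red points are members, and the grey band is the 5th to 95th percentile of 10244 genes. Ctgf and Amotl2 lie at 3.25 and 2.38, beside the bile duct markers Spp1 and Sox9, and genes past a difference of 1 are named; 2 genes are not shown.

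Beyond the members, 77 other genes of the pathway were listed by role, of which 60 were kept. From the 8-week group to the SALI group 19 of the 60 rose and 1 fell (33.3% called, against 39.4% of all genes), from the 8-week group to the 12-week group 12 rose and 0 fell (20.0% against 19.2%), and between the SALI group and the 12-week group 10 were higher and 9 lower in the SALI group (31.7% against 32.8%). Their medians were 0.22, 0.28 and -0.12. By direction, 25.3% of all genes were called higher and 14.1% lower in the SALI group than in the 8-week group, and 12.2% and 6.98% in the 12-week group.

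In the kinase cascade, 2 of 14 genes tested rose from the 8-week group to the SALI group (25.3% of all genes did) and 2 to the 12-week group (12.2% of all genes), Lats1 among both. Map4k4, a kinase upstream of LATS, had 4.31 to 6.33 FPKM in the 8-week group, 7.94 to 8.71 in the SALI group and 6.81 and 10.5 in the 12-week group. It rose by 0.59 (adjusted p = 0.0256 in limma) in the SALI group, a call that ended without 1a, 2a or any one SALI sample (adjusted p from 0.0582 to 0.103), with no floor (0.0526) and with equal sums (0.0805). Mob1b, a LATS coactivator, was at 5.15 to 6.22 in the 8-week group, 5.56 to 6.34 in the SALI group and 7.51 and 9.04 in the 12-week group. Its difference between the 12-week group and the 8-week group was 0.49 (adjusted p = 0.0331 in limma) and 0.37 without 3e (adjusted p = 0.122), and it was past the threshold neither without any one 8-week sample nor without C098 (adjusted p from 0.0545 to 0.109), nor with quantile normalization or with only these groups in the fit (0.0506 and 0.0629). Between the SALI group and the 12-week group the differences of Sav1 (0.91, adjusted p = 0.0397), Map4k2 (-0.52, adjusted p = 0.0403) and Mob1b (-0.43, adjusted p = 0.0328) were called by limma, and without 3e they were 0.31, -0.25 and -0.31 (adjusted p = 0.0899, 0.172 and 0.138). For Sav1 and Map4k2 leaving out any sample but 2e ended the call, and for Mob1b 1a, 3a, C096 and C098 did so too. Without 2e the differences of Sav1 and Map4k2 were 1.52 and -0.80 (adjusted p = 7.14e-05 and 0.00191 in limma). With only these groups in the fit all 3 calls ended (adjusted p = 0.107, 0.122 and 0.0977), with no floor those of Sav1 and Map4k2 (0.0822 and 0.0728), and with median-ratio scaling, equal sums and quantile normalization that of Sav1 (0.0604, 0.0561 and 0.0563).

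Among 16 upstream polarity and junction regulators, 5 rose in the SALI group (25.3% of all genes did) and 5 in the 12-week group (12.2% of all genes) against the 8-week group. Between the SALI group and the 12-week group 3 were higher and 6 lower in the SALI group (median -0.42), where 32.8% of all genes were called. Ptpn14, a phosphatase that binds YAP and is also in the target signature, had 0.144 to 0.259 FPKM in the 8-week group, 6.16, 13.4 and 9.50 in the SALI group, and 1.04 and 2.31 in the 12-week group. The 3 groups did not overlap, and the SALI group was highest. Ptpn14 rose by 3.09 (standard error 0.26, adjusted p = 5.75e-05 in limma) from the 8-week group to the SALI group and was 1.98 higher there than in the 12-week group (standard error 0.29, adjusted p = 0.00157 in limma), calls that held with any 1 sample left out. From the 8-week group to the 12-week group the difference was 1.11 (adjusted p = 0.0337 in limma), and 0.76 without 3e (adjusted p = 0.142), and it was not past the threshold without any one 8-week sample or C098 (adjusted p from 0.0575 to 0.102), or with no floor (0.0764). With a pseudocount of 0.1 the rises of Ptpn14 were 4.94 and 2.45. The polarity scaffold gene Dlg5 was at 4.13 to 5.29 in the SALI group against 1.65 and 2.95 in the 12-week group (0.84, adjusted p = 0.0120 in limma, and 0.56 without 2e, adjusted p = 0.0407).

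Among the 6 upstream regulators called lower in the SALI group than in the 12-week group, Amot and Wwc1 had the largest differences, calls that ended without 3e. Amot had 1.56 to 1.72 FPKM in the 8-week group and 1.26 to 2.47 in the SALI group, and Wwc1 9.41 to 11.0 and 6.33 to 12.0. Their differences between the SALI group and the 12-week group were -1.30 (adjusted p = 0.0301 in limma) and -1.47 (adjusted p = 0.0301 in limma), without 3e -0.54 (adjusted p = 0.0900) and -0.64 (adjusted p = 0.116), and without 2e -2.06 (adjusted p = 0.000270) and -2.29 (adjusted p = 0.000569). Leaving out 1a, 2a or C096 ended both calls, 3a or C097 that of Amot, and C098 that of Wwc1 (adjusted p from 0.0507 to 0.0862), and both ended with no floor (0.0700 and 0.0687) and with only these groups in the fit (0.0874 and 0.0856). Between the 12-week group and the 8-week group, Amot differed by 1.42 (adjusted p = 0.0345 in limma), by 0.66 without 3e (adjusted p = 0.0765) and by 2.18 without 2e (adjusted p = 0.000461). It was not called without any one 8-week sample or C098 (adjusted p from 0.0527 to 0.0984), with no floor (0.0803) or with only these groups in the fit (0.0707).

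The 14-3-3 proteins hold phosphorylated YAP and TAZ in the cytoplasm. In the list of retention and degradation genes, 8 of 10 tested rose from the 8-week group to the SALI group and 0 fell, against 25.3% and 14.1% of all genes, and 6 of the 8 were 14-3-3 genes. Ywhaz rose from 17.4, 18.0 and 20.2 FPKM to 54.1, 53.4 and 43.5 (1.39, standard error 0.12, adjusted p = 7.31e-05 in limma), and was at 31.7 and 29.9 in the 12-week group (0.704 above the 8-week group, adjusted p = 0.0125 in limma). Ywhaq rose from 4.33 to 5.25 in the 8-week group to 9.13 to 12.0 in the SALI group (1.06, adjusted p = 0.000945 in limma). Of their 50-base windows 15.2% and 28.9% occur in other genes, and those 2 genes were therefore left out of the restriction to genes with little shared sequence. Ywhag and Ywhab, with 0.215% and 0 such windows, rose by 0.71 (adjusted p = 0.00201) and 0.55 (adjusted p = 0.00535) in limma. Ywhah was higher in the 12-week group than in the 8-week group, at 52.4 and 60.2 against 30.5 to 37.4 (0.73, adjusted p = 0.0115 in limma). Without 1a the differences of Ywhah and Ywhaz between the 12-week group and the 8-week group were 0.66 and 0.66 (adjusted p = 0.0508 and 0.0548). The replicate block ended both calls too (adjusted p = 0.204 and 0.189 in limma). Ywhaz and Ywhaq were also above the 12-week group in the SALI group, by 0.69 (adjusted p = 0.00631) and 0.66 (adjusted p = 0.0166) in limma, the latter not without C098 or 2e (0.59 and 0.46, adjusted p = 0.0564 and 0.0660), with equal sums (0.0881) or with only these groups in the fit (0.0588).

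Of the STRIPAK phosphatase complex, which dephosphorylates the kinases upstream of LATS, 2 of 9 genes tested rose from the 8-week group to the SALI group (25.3% of all genes did) and 0 were called between the 12-week group and the 8-week group by limma (3 had an unadjusted p under 0.05). The rises were those of the scaffold and catalytic subunits of protein phosphatase 2A, which serve many other complexes. Ppp2r1a went from 40.7 to 45.9 FPKM to 66.9 to 83.4 (0.75, adjusted p = 0.00622 in limma), and Ppp2ca, with 41.0% of its windows in other genes, from 17.6 to 19.1 to 26.0 to 31.5 (0.64, adjusted p = 0.00330 in limma). Against the 12-week group Ppp2r1a was 0.56 higher (adjusted p = 0.0397) and Limd1 0.39 lower in the SALI group (-0.39, adjusted p = 0.0456), 2 calls by limma that ended without most single samples, among them 2e (0.31 and -0.23, adjusted p = 0.174 and 0.182). The exceptions were C097 and 3e for Ppp2r1a and 3e for Limd1. Both calls ended also with no floor (adjusted p = 0.0558 and 0.0633), quantile normalization (0.0966 and 0.0878) and only these groups in the fit (0.112 and 0.139), that of Ppp2r1a with equal sums (0.37, adjusted p = 0.183), and that of Limd1 with a floor of 0.1 (0.0574), median-ratio scaling (0.0567) and genes of little shared sequence (0.0531).

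Vgll4, a cofactor that competes with YAP for TEAD, fell from 6.86, 7.42 and 5.22 FPKM in the 8-week group to 2.37, 3.99 and 2.49 in the SALI group, without overlap (-0.94, standard error 0.18, adjusted p = 0.00483 in limma), and had 3.70 and 4.55 in the 12-week group. In the target signature, 5 of 16 genes tested rose from the 8-week group to the SALI group (25.3% of all genes did) and 5 from the 8-week group to the 12-week group (12.2% of all genes), with 0 falls. Gadd45a, a stress gene that p53 also induces, had 3.62 to 5.10 FPKM in the 8-week group, 42.4, 9.86 and 15.5 in the SALI group and 21.6 and 20.1 in the 12-week group. It rose by 1.96 (standard error 0.43, adjusted p = 0.00771 in limma) and 2.10 (standard error 0.48, adjusted p = 0.0206 in limma), the second not without 1a, 3a or 3e (2.04, 2.04 and 2.15, adjusted p = 0.0721, 0.0705 and 0.0519) or with no floor (0.0522), and 15.6% of its windows are shared with other genes. Nt5e was at 132, 127 and 78.2 in the SALI group against 48.7 and 10.6 in the 12-week group (2.20, standard error 0.51, adjusted p = 0.0125 in limma), a difference of 1.151 without 3e (adjusted p = 0.0162). Myof was 1.26 higher in the 12-week group than in the 8-week group (adjusted p = 0.0347 in limma) 0.57 higher without 3e (adjusted p = 0.0518), 1.95 higher without 2e (adjusted p = 0.000235) and 2.15 higher with a pseudocount of 0.1 (adjusted p = 0.0214). It was not called without any one 8-week sample or C098 (adjusted p from 0.0594 to 0.104), with no floor (0.0771) or with only these groups in the fit (0.0779).

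**Figure D5:**
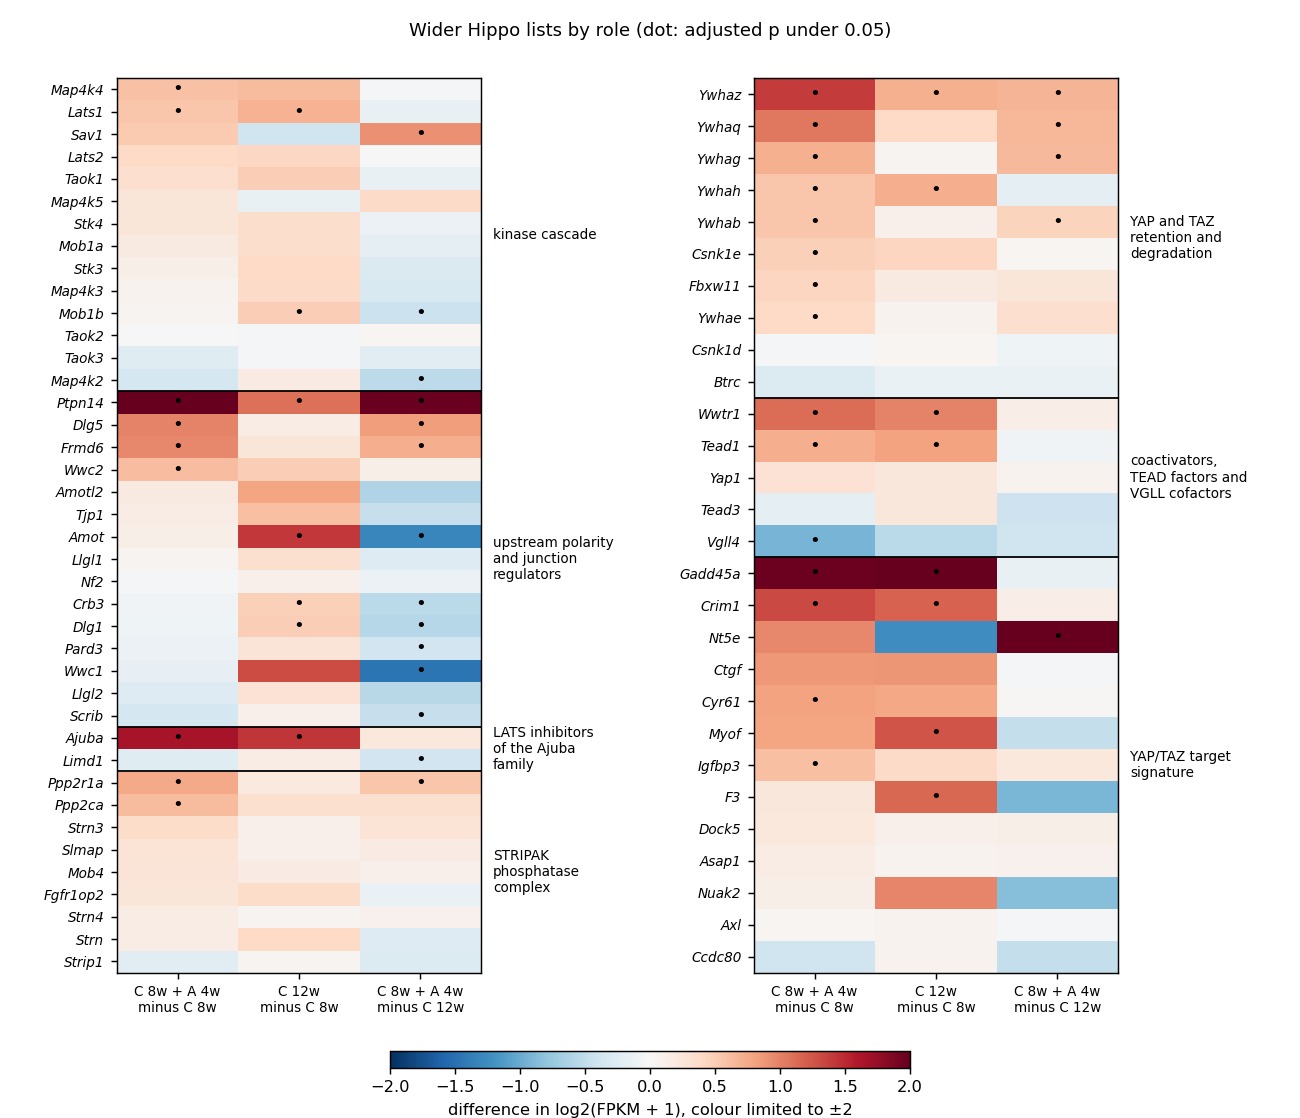
Differences of log2(FPKM + 1) in 3 comparisons for the kept genes of 7 Hippo lists, each gene shown once under its first list and ordered within it by the first comparison; color gives the difference, limited to 2 either way, and dots mark an adjusted p under 0.05, with 1 gene not shown. Ptpn14, Ajuba and Gadd45a are strongly higher in the SALI group than in the 8-week group, Vgll4 is lower, and Amot and Wwc1 are lower in the SALI group than in the 12-week group.

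For the 2 members with the largest range of group means, the genes of most similar pattern were sought as the smallest root mean square difference of centred log2(FPKM + 1) over the 8 samples, among 10243 genes. The nearest to Ajuba were Ddr1 (0.18), Pmaip1 (0.18) and Myl12a (0.21), which encode a collagen receptor kinase, a BH3-only apoptosis protein and a myosin light chain. Ddr1 had 1.75 to 2.97 FPKM in the 8-week group, 6.51 to 8.29 in the SALI group, 6.43 in 2e and 10.1 in 3e. The nearest to Wwtr1 were Rnf39 (0.071), Ddx52 (0.13) and Chml (0.13). Rnf39 had 4.84 to 6.66 FPKM in the 8-week group, 10.8 to 15.9 in the SALI group, 9.08 in 2e and 14.3 in 3e. For Rnf39 and Wwtr1, C096 and 3e were the highest samples of their groups. Rnf39 was chosen by likeness over these same samples, so this is not a separate result.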

How the data were processed

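RNA of 8 samples was sequenced (8-week group C 8w, n = 3; SALI group C 8w + A 4w, n = 3; 12-week group C 12w, n = 2), and groups were taken from the treatment labels. The authors deposited FPKM values, fragments scaled by gene length and mapped fragments, in one table. Per the labels' processing notes Bowtie 0.12.2 and mouse build mm8 were used. The quantifier and the test for single genes are not given in the sources used here. FPKM holds no counts, so depth and counting error are unknown.

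The 10244 genes that reached an FPKM of 1 in 4 or more samples were compared as log2(FPKM + 1) with limma 3.58.1 in R 4.3.3 (lmFit, eBayes with a trend, two-sided), in one fit with 1 mean per group, Benjamini-Hochberg adjustment and a threshold of 0.05. The fit was tested on simulated data. The study describes the samples as individual animals, and p-values measure the spread between these. Shared sequence is the share of a gene's 50-base windows of GENCODE M21 transcripts found in another gene, on either strand. Promoters are RefSeq's, on GRCm38.p6, and no coordinates of mm8 were used. Motifs were searched on both strands.

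All members were named, and of each Hippo list the 2 largest rises and 2 largest falls called in each comparison, except that some genes of the lists are counted but not reported here by name. Tead3, Tead4, Nuak2, F3, Ywhag, Ywhab, Alb, mt-Co1, Rpl23a and the single marker genes were chosen after their values were seen, as was the comparison of 2e with 3e. The members and lists were chosen with earlier results of these data known. The 8-week group and the 12-week group both use replicate numbers 2 and 3, and no pairing is stated. A replicate block was therefore tried as an alternative, beside a pseudocount of 0.1, a floor of 0.1 or none, median-ratio, equal-sum and quantile scaling, each sample left out, eBayes without a trend, the 2 groups alone, and genes with at most 2% shared windows. Lists were summarised by counts and medians.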

Additional observations from a re-analysis of the deposited data

How the results depend on the processing

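Over all genes, 4034, 3356 and 1962 were called in the SALI group against the 8-week group, the SALI group against the 12-week group, and the 12-week group against the 8-week group. Genes with at most 2% shared windows numbered 6318, with 2194, 1767 and 1241 called (34.7, 28.0 and 19.6% of these, against 39.4, 32.8 and 19.2% of all genes), and with 5, 0 and 4 members called of the 7 then tested, Lats2 and Ctgf being left out. With only the groups compared, the SALI group against the 12-week group gave 1996 genes, and the members called against the 8-week group were 8 in the SALI group (5186 genes) and 3 in the 12-week group (1433 genes). Leaving out one sample gave 2469 to 5189, 2494 to 4214 and 677 to 3702 genes and 3 to 8, 0 to 3 and 2 to 8 members. The lowest counts against the 8-week group came without 1a (2469 genes and 3 members in the SALI group, 677 and 2 in the 12-week group). The 12-week group against the 8-week group also fell to 941 genes without 2a and 720 without 3a, with 2 members each, and the members called were 2 without 3e. The highest counts came without 2e (5189 and 8, 4214 and 3, 3702 and 8), and without 3e 8 members were called in the SALI group against the 8-week group (5187 genes) and 2 against the 12-week group (3124 genes). The cause was not tested. With no floor, or a floor of 0.1, Ankrd1 was called lower in the SALI group than in the 12-week group, 1 member in place of 0. Against the 8-week group, the floor of 0.1 gave 5 members in the SALI group and 5 in the 12-week group. With no floor these counts were 4 and 3.

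With the replicate block on the 4 samples numbered 2 and 3, the 12-week group against the 8-week group gave 252 genes and 0 members, where the differences between numbers 3 and 2 in both groups had a correlation of -0.189 across genes. The differences of the 4 members called without the block were then 0.90 for Wwtr1, 0.74 for Tead1, 0.63 for Lats1 and 1.29 for Ajuba (adjusted p = 0.1202, 0.229, 0.203 and 0.0526 in limma). Beyond the members, the block ended the calls of Mob1b, Amot, Ptpn14, Myof, Ywhah and Ywhaz. Their adjusted p in limma were 0.348, 0.113, 0.105, 0.148, 0.204 and 0.189. The crossed pairing, chosen after seeing the data, gave 16 genes and 0 members.

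Differences between the SALI group and the 12-week group that were not past the threshold changed sign. Equal sums gave -0.11 for Yap1, -0.0407 for Wwtr1 and -0.15 for Cyr61, quantile normalization -0.00693 for Yap1, 0.030 for Lats2 and -0.056 for Cyr61, and the pseudocount of 0.1 gave 0.0056 for Lats2 and 0.12 for Ctgf. Leaving out one sample moved Yap1 to between -0.00988 and 0.14, Wwtr1 to -0.22 and 0.48, Tead1 to -0.48 and 0.32, Lats2 to -0.381 and 0.37, Ajuba to -0.19 and 0.62, Amotl2 to -1.80 and 0.58, Cyr61 to -0.34 and 0.38, and Ctgf to -1.65 and 1.60. Between the 12-week group and the 8-week group it moved Amotl2 to between -0.40 and 1.98 and Ctgf to between -0.74 and 2.51. The median-ratio scaling moved the share of higher genes among those called from 64.2% to 46.7% in the SALI group against the 8-week group and from 63.6% to 44.0% in the 12-week group against the 8-week group, and equal sums moved it from 53.1% to 35.9% in the SALI group against the 12-week group. Of the values of single genes in fits that kept all samples, 395 kept their direction and side of the threshold. Of the others, 27 fell short of the threshold where it had been passed, and 8 changed sign. The 395 include values of Ankrd1 with no floor or a floor of 0.1. Ankrd1 was not tested in the main fit, so it had no side of the threshold to keep. With only the groups compared, 40 kept both, 12 fell short and 3 passed where they had not. Leaving out one sample, 321 kept both, 90 fell short, 13 passed where they had not and 16 changed sign, and with the replicate block or its crossed form 11 kept both and 21 fell short.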
